A study of Arabidopsis thaliana with 12 samples.

Results

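The seedlings described here were proatcape1, an Arabidopsis thaliana T-DNA insertion line in the Landsberg erecta background that carries its insertion in PROAtCAPE1 (AT4G33730), the gene of the precursor of the secreted peptide AtCAPE1. Their transcripts after salt were compared with those of proatcape1 in medium alone. All 6 arrays that the labels give to proatcape1 were used, of 12 in the series. All seedlings were 10 days old, each group had 3 arrays from independent experiments, and total RNA of whole seedlings was hybridised to 1-colour Agilent arrays. The salt group received 125 mM NaCl in diluted Murashige and Skoog medium for 12 h, and the group in medium alone is labelled 0 h, so that salt and the hour of harvest cannot be told apart in any value below. The other 6 arrays hold wild type (Landsberg erecta) in medium alone and in salt, and are described only where the salt change of proatcape1 is set against that of wild type. They also entered the fit, which estimated 1 spread over all 4 groups, and the filter on dim probes. A single insertion line represents the mutant, and each array is a pool of seedlings.

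Plants meet salt first as a shortage of water and then as an excess of sodium. Abscisic acid and other hormones spread the signal, protective proteins and small solutes accumulate, reactive oxygen is detoxified, and growth slows, with fewer cell divisions and less wall extension. CAPE peptides are cut from the C-terminal end of proteins of the pathogenesis-related protein 1 family, and in tomato the first of them was found as a defence signal.

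The PROAtCAPE1 probe was checked first. Its signal was 641, 869 and 590 on the wild type arrays in medium alone and 56.6, 44.5 and 48.3 on those in salt. On the proatcape1 arrays it was 5.98, 3.88 and 3.23 in medium alone and 3.99, 6.36 and 2.97 in salt. None of the 6 proatcape1 arrays was well above background there, so every array matched its genotype label and no salt change of PROAtCAPE1 can be given in the mutant.

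Across the 12 arrays 71.8% to 78.8% of probes were well above background and no spot was saturated. Levels below are normalized log2 signals, in which 0 is the 75th percentile of all probes on the array, and changes are differences of these levels (salt minus medium alone, log2). A locus rose or fell when limma's adjusted p was at most 0.05 and the change exceeded 1.5-fold. The median change over the 19027 loci tested was −0.13, and the median SE of a change was 0.069. Mesophyll markers were well above background on all 6 arrays (5 of 5 genes). Of 4 seed markers, CRA1 and OLEO1 were well above background on all 6 arrays, CRU3 on 4 and SESA1 on none. Their summed level differed widely between arrays of a group, from −4.31 to −0.29 in medium alone and from −4.56 to −1.9 in salt.

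More loci fell than rose in proatcape1 under salt, while the largest changes were mostly increases. Of 19027 loci, 3730 rose (19.6%) and 4988 fell (26.2%). Changes of 1.5- to 2-fold were found at 1287 loci that rose and 2399 that fell, but changes over 16-fold at 320 that rose and 50 that fell. At 8700 of the 8718 called loci all 3 salt arrays lay on one side of all 3 arrays in medium alone. For 92 loci no array in medium alone was well above background and every salt array was, and for 24 loci the reverse held.

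LEA4-5, a late embryogenesis abundant protein that protects other proteins when water is short, went from −7.07, −8.21 and −7.93 in medium alone to 2.35, 2.44 and 2.21 in salt. No array in medium alone was well above background, and the rise was at least 573-fold (adjusted p = 8.17e-10). Here and below, "at least" is the salt mean over a floor set on each dim array by the lowest signal well above background. TSPO, a membrane protein that binds tetrapyrroles and is degraded by autophagy, went from −3.25, −4.17 and −3.96 to 5.43, 5.36 and 5.23 (change 9.14, SE 0.31, adjusted p = 1.09e-09). The lipid transfer protein gene LTP4 changed by 8.85 (SE 0.71), with levels of −4.53, −4.92 and −5.31 in medium alone and 4.33, 3.83 and 3.64 in salt. In all these genes the groups were far apart, whereas the arrays in medium alone differed among themselves by up to about 1 on the log2 scale, more than those in salt.

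Several of the other large increases were in genes with no measurable transcript in medium alone. PUB19, a U-box ubiquitin ligase that acts in abscisic acid signalling, was at −7.99, −8.00 and −8.41 in medium alone and at −0.06, −0.04 and −0.01 in salt, a rise of at least 111-fold. NATA1, which acetylates ornithine, rose at least 170-fold and ABCF2, a soluble ATP-binding cassette protein, at least 83.1-fold. BGLU27, a beta-glucosidase, rose at least 73.5-fold (salt levels −0.54, −0.50 and −0.85). CSLG2, a cellulose synthase-like protein, changed by 7.86 (SE 0.75), although its level in medium alone was spread from −8.50 to −6.46 and 1 of those 3 arrays was well above background. NUDT24, a Nudix hydrolase, changed by 7.80 (SE 0.96).

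The largest decreases were smaller than the largest increases and included both bright and dim genes. SAUR3, of the auxin-responsive SAUR family, was at −2.6, −2.6 and −2.74 in medium alone and was not well above background on any salt array, a fall of at least 16.5-fold. The cytochrome P450 genes CYP712A2, CYP76G1 and CYP71B24 were lost in the same way, by at least 18.2-, 9.55- and 6.63-fold, and so were the plantacyanin-type gene UCC3 (at least 8.64-fold) and the anion channel SLAH1 (at least 8.18-fold). RbcX1, a chaperone in the assembly of Rubisco, fell from 2.51, 2.53 and 2.38 to −2.13, −2.19 and −2.47 (change −4.74, SE 0.09, adjusted p = 2.39e-11). PHS2, the cytosolic alpha-glucan phosphorylase, fell from 4.12, 4.15 and 4.13 to −0.45, −0.22 and −0.26 (change −4.45, SE 0.08). Both genes were bright on every array, so these falls are not limited by background. HBI1, a bHLH factor that promotes cell elongation, changed by −3.97 (SE 0.10), and the RADIALIS-like MYB genes RL3 and RL1 by −4.83 (SE 0.24) and −4.07 (SE 0.58).

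**Figure D1:**
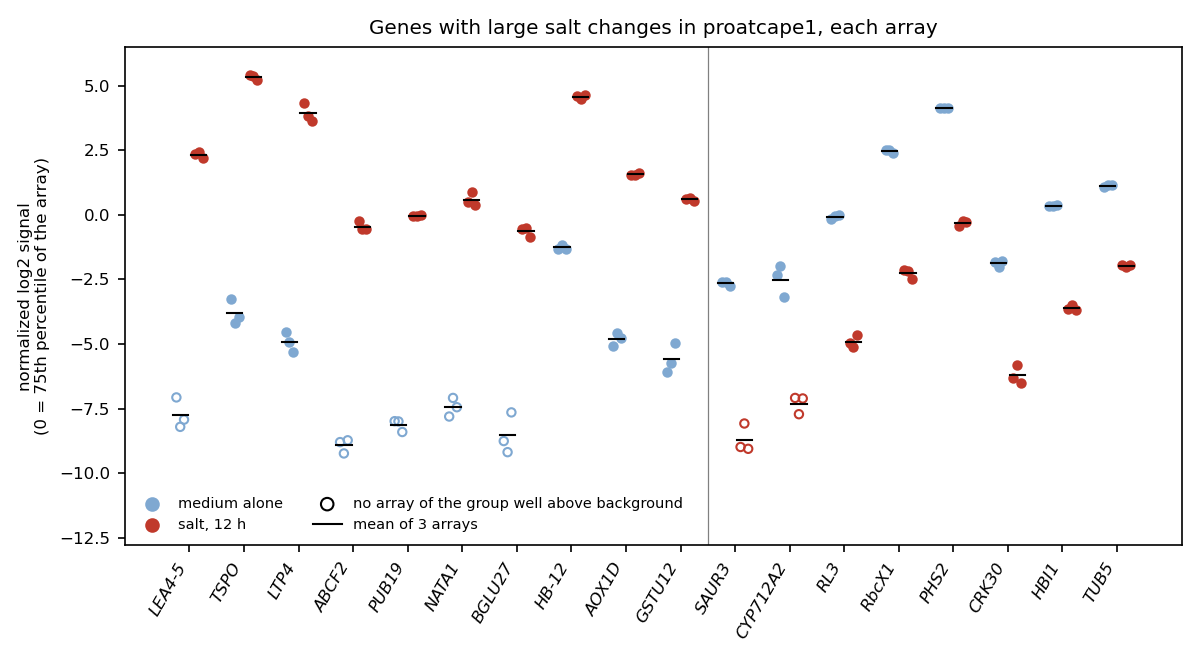
Normalized log2 signal (y axis; 0 is the 75th percentile of the array) of 18 genes on the 3 proatcape1 arrays in medium alone (blue) and the 3 in salt (red), with the group mean as a bar and open circles where no array of the group was well above background. The groups do not overlap at any of the 18 genes. LEA4-5 reaches 2.44 in salt, and its arrays in medium alone are drawn at their own signals, below the floor used for its bound.

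The gene lists are given next by role, each with the number of its tested members that rose or fell. These counts are read against 19.6% and 26.2% of all loci. In the plot of changes by list, the lists drawn run from alternative respiration (median 2.66) at the top to DNA replication (median −1.40) at the bottom.

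**Figure D2:**
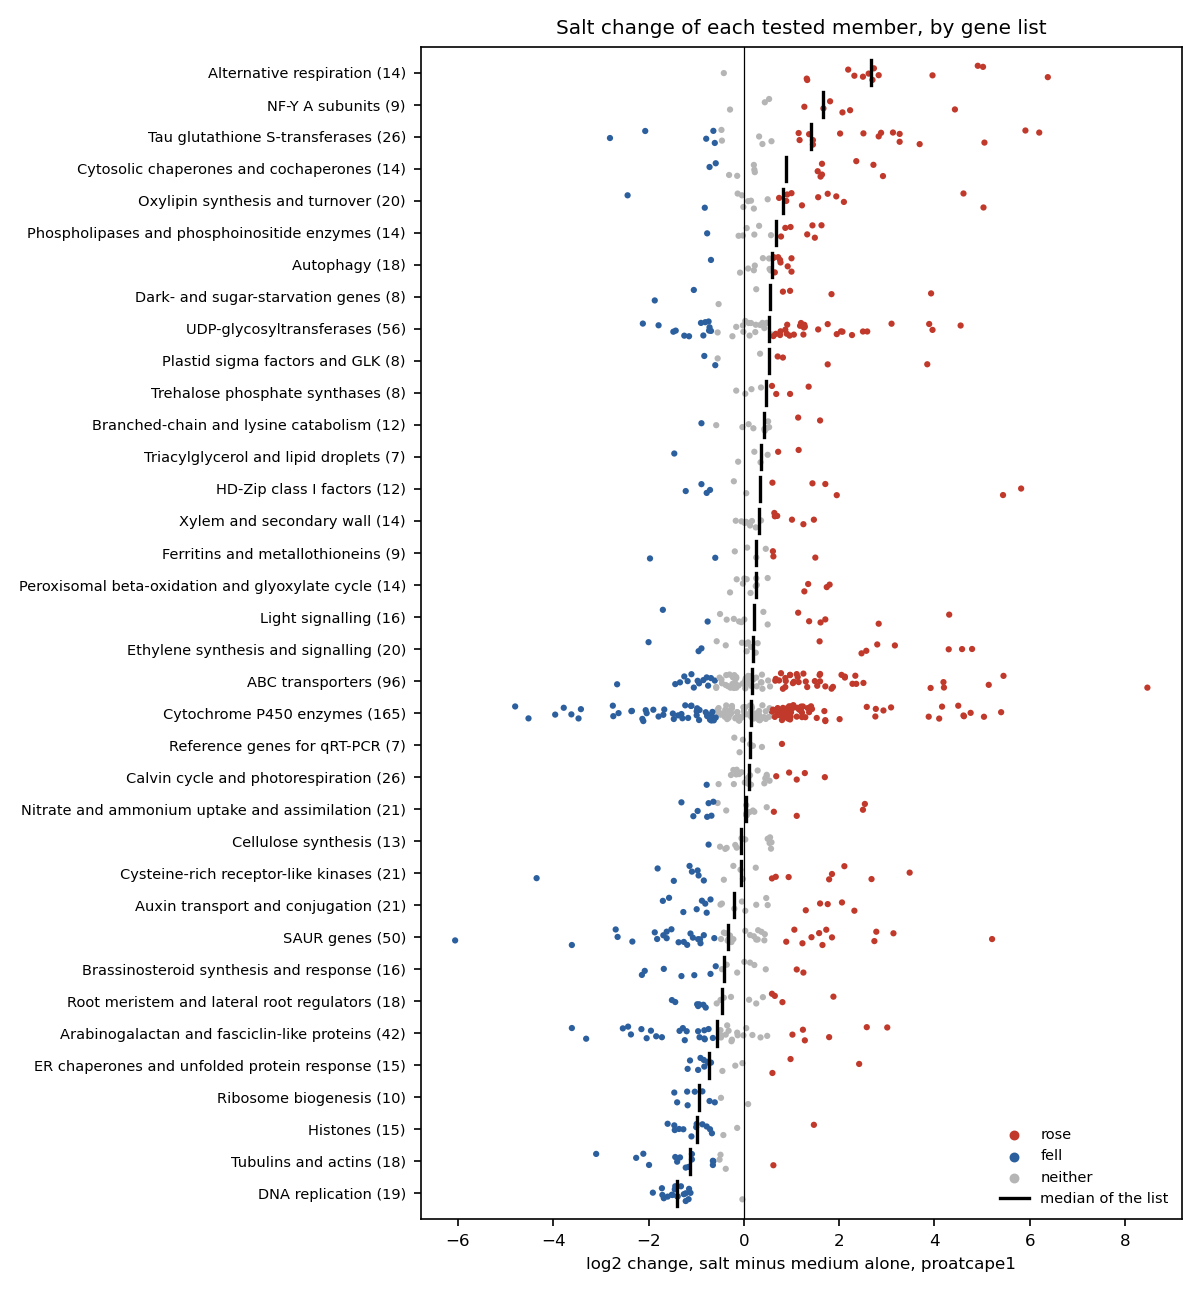
Log2 change under salt in proatcape1 (x axis) of each tested member of 36 lists (number tested in brackets), red where it rose, blue where it fell and grey where neither was called, with the list median as a black bar. Alternative respiration and NF-Y A subunits lie mostly to the right of 0, and DNA replication, tubulins and actins, histones and ribosome biogenesis mostly to the left.

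Of 12 class I HD-Zip factors tested 6 rose and 4 fell. HB-12 and HB-7, which are induced by abscisic acid and dampen its signalling, went up the most: HB-12 stood at −1.31, −1.15 and −1.31 in medium alone and at 4.59, 4.47 and 4.63 in salt (change 5.82, SE 0.12), and HB-7 changed by 5.44 (SE 0.19). HB21, HB40 and HB53, which act together in axillary buds to raise abscisic acid, rose by 1.95, 1.71 and 1.44. HB-3 and HB5 were the largest falls (−1.22 and −0.89), while HB16 (−0.21, SE 0.08) and HB52 (0.05, SE 0.09) passed in neither direction. Of 9 NF-Y A subunits, which bind CCAAT boxes as part of a trimer, 6 rose and none fell, led by NF-YA5 (change 4.43, SE 0.17) with levels of −4.06, −3.86 and −3.68 in medium alone and 0.73, 0.43 and 0.52 in salt. NF-YA4 followed (2.23, SE 0.08), and NF-YA2, NF-YA6 and NF-YA8 were not called (0.53, 0.44 and −0.29).

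In alternative respiration 13 of 14 members rose. The alternative oxidases and the NDA and NDB dehydrogenases of this list let electrons bypass the proton-pumping steps of the mitochondrial chain. The list also holds BCS1, NAC13, UCP5 and DIC2, which are not such enzymes and which rose too. AOX1D, an alternative oxidase, was at −5.06, −4.59 and −4.77 in medium alone and at 1.54, 1.56 and 1.62 in salt (change 6.38, SE 0.67, adjusted p = 4.54e-06). AOX1A, the alternative oxidase of most tissues, rose by 2.62 (SE 0.14). The external NADH dehydrogenase NDB4 rose by 4.91 (SE 0.51) and the internal NDA1 by 3.96 (SE 0.13), and BCS1 (AT3G50930), an AAA-type ATPase of the outer mitochondrial membrane, by 5.02 (SE 0.21). NDB1, the NADPH-using external enzyme, was the exception at −0.42 (SE 0.06).

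Enzymes that modify small molecules, and ATP-binding cassette transporters, rose at larger shares than all loci. For the 4 families in the order below, 61.5%, 48.2%, 38.2% and 40.6% rose (19.6% of all loci). The shares that fell, 19.2%, 23.2%, 27.3% and 14.6%, were near or below the 26.2% of all loci. Of 26 tau glutathione S-transferases, which conjugate glutathione to xenobiotics and lipid peroxides, 16 rose and 5 fell. GSTU12 rose from −6.07, −5.74 and −4.95 to 0.63, 0.67 and 0.53 (change 6.20, SE 0.30) and its neighbour GSTU11 by 5.91 (SE 0.49), whereas GSTU14 and GSTU26 fell by 2.81 and 2.07. UDP-glycosyltransferases, which attach sugars to hormones and phenolics, rose at 27 of 56 and fell at 13. UGT76E12 (4.55) and UGT74E2 (3.96), which glucosylates indole-3-butyric acid, were highest and UGT72E1 (−2.12) and UGT85A3 (−1.79) lowest. Of 165 cytochrome P450 genes 63 rose and 45 fell, and CYP81D8 changed by 5.40. Within that family the pair that makes trans-zeatin cytokinins, CYP735A2 and CYP735A1, fell by 3.42 (SE 0.18) and 2.75 (SE 0.24), and CYP707A3, an abscisic acid 8′-hydroxylase, rose by 2.77 (SE 0.10). ATP-binding cassette transporters rose at 39 of 96 and fell at 14. ABCG16, a transporter needed for the pollen wall, rose by 5.45 (SE 0.13) and ABCG40, a plasma membrane importer of abscisic acid, by 5.14 (SE 0.31), while ABCG4 and ABCG14, the latter an exporter of root cytokinin, fell by 2.66 and 1.44.

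Hormone genes other than those of abscisic acid changed at steps of synthesis, transport and conjugation. For ethylene, 8 of 20 genes rose and 3 fell. ACC synthases, which catalyse the committed step, rose at ACS2 (from −4.49, −4.30 and −4.69 to 0.41, 0.40 and 0.07, a change of 4.79), ACS8 (at least 8.76-fold, with no array in medium alone well above background) and ACS7, and fell at ACS4 (−2.0). ESE1, an ethylene- and salt-induced factor, rose by 4.58 (SE 0.66). EFE, an ACC oxidase, which acts after ACC, fell by 0.95. For auxin, 5 of 21 genes rose and 8 fell, and the sides differed by role. The influx carriers LAX3, LAX1 and AUX1 fell by 1.70, 1.57 and 1.27, and the amido synthetases GH3.3, GH3.1 and BRU6, which conjugate auxin to amino acids, rose by 2.32, 2.06 and 1.76.

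For brassinosteroids 2 of 16 genes rose and 7 fell. BEE3 and PRE5, bHLH-type factors of growth, fell by 2.14 and 2.08. The genes that rose were IBH1, which restrains that growth, at 1.25 and BR6OX2, the last oxidase of synthesis, at 1.11. For oxylipins 11 of 20 rose and 2 fell. JMT, which methylates jasmonic acid, rose from −6.35, −5.89 and −5.58 to −1.18, −0.53 and −1.02 (change 5.03, SE 0.25), and CYP94B3, which inactivates jasmonoyl-isoleucine, by 4.61 (SE 0.20). The allene oxide cyclase genes AOC2 and AOC1 fell by 2.44 and 0.82; they are close copies, and hybridisation between them could share signal.

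DNA replication, ribosome biogenesis, histones and tubulins and actins had the highest shares of members that fell. Of 19 DNA replication genes 18 fell and none rose (background 26.2% fell), with CDC6 at −1.67, −1.69 and −1.67 in medium alone and −3.67, −3.56 and −3.53 in salt (change −1.91, SE 0.09) and PCNA1 at 0.24, 0.08 and 0.30 against −1.62, −1.46 and −1.47 (change −1.72, SE 0.10). CDC6 loads the replicative helicase and PCNA1 is the sliding clamp. RNR2A, of the small ribonucleotide reductase subunit, was the only member not called (−0.03, SE 0.06), while TSO2 of the same subunit class changed by −1.26 and RNR1, the large subunit, by −1.6. Histone genes fell at 12 of 15, with HTB2 at −1.46 (SE 0.07), and HIS1-3, the linker histone known to be induced by drought, rose by 1.47 (SE 0.14). HTB4 (−0.43) and RAT5 (−0.14) were not called, and several histone genes are near-identical copies whose probes may share signal. Ribosome biogenesis genes fell at 8 of 10, among them the nucleolar FIB2 (−1.46) and NUC-L1 (−1.40), and PUM23 (−0.48) and NUC-L2 (0.09, SE 0.28) were not called.

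Tubulins and actins fell at 14 of 18. TUB5 dropped from 1.09, 1.16 and 1.15 to −1.96, −2.03 and −1.93 (change −3.10, SE 0.06) and TUB1 by 2.26, whereas TUA1, known for pollen expression, was at 0.62 (0.57 without salt replicate 1 and 0.55 with normexp, both under 1.5-fold). The 3 actins tested, ACT7, ACT8 and ACT11, were not called (−0.51, −0.49 and −0.38). Arabinogalactan and fasciclin-like proteins of the cell surface fell at 21 of 42 and rose at 6, from FLA6 (−3.61, SE 0.27) and AGP30 (−3.31, SE 0.20) to AGP5 (2.58) and FLA5 (3.01). SAUR genes fell at 21 of 50 and rose at 12. SAUR3 (at least 16.5-fold, above) and SAUR1 (−3.61) were among those that fell, and SAUR43 (at least 13.0-fold, with no array in medium alone well above background) and SAUR35 (change 3.14, SE 0.13) among those that rose. Cellulose synthesis genes were mostly not called: 12 of 13 passed in neither direction and CESA2 fell by 0.74, while 1 or 2 rose without replicate 1 in medium alone, salt replicate 1 or salt replicate 3. Of 14 xylem and secondary wall genes 6 rose, led by the xylan genes FRA8 (1.47) and IRX15 (1.25), and none fell.

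Root regulators fell at 7 of 18 and rose at 4, a count that was 2 without salt replicate 2. The meristem factor PLT1 and the peptide RGF3 fell by 1.44 and 1.51, whereas LBD16, which starts lateral roots, rose by 1.88 (SE 0.12) and WOX5, of the quiescent centre, by 0.81 (SE 0.19). Markers of root cell types are given next, but the 3 root cap markers (SMB, NAC015 and NAC070) are also members of this list and among its falls. Root epidermis and hair markers fell at 5 of 5 (summed level 1.28 to 1.48 in medium alone and −0.38 to −0.18 in salt), root endodermis markers at 4 of 5 (2.53 to 2.78 and 1.13 to 1.35) and root cap markers at 3 of 3 (−1.57 to −1.5 and −2.63 to −2.30), and guard cell markers fell at 4 of 5 (3.94 to 4.14 and 1.51 to 2.68). The guard cell sum rests mostly on its brightest gene, AT1G22690 (mean level 3.84 in medium alone and 1.73 in salt). The guard cell marker not called, KAT1, changed by 0.34. In whole seedlings, fewer cells of a type and less RNA per cell cannot be told apart. Mesophyll and xylem markers were not called at any of 5 genes each, although the summed level of each type was higher in salt without overlap. The sums were 9.64 to 9.8 in medium alone and 9.84 to 9.95 in salt for mesophyll, and 2.95 to 3.03 and 3.2 to 3.28 for xylem. The xylem markers CESA4, IRX3 and IRX1 changed by 0.55, 0.57 and 0.58, just under 1.5-fold, and XCP1 and XCP2 by 0.13 and 0.17. Phloem markers rose at 2 of 4 (SUC2 by 1.02 and NAKR1 by 0.86), with sums of 2.61 to 2.68 and 3.19 to 3.21. The part of cell type shares in the lists above was not tested.

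Chaperones are grouped here by compartment. Of 14 cytosolic chaperones and cochaperones 7 rose, with HSA32 at 2.92 (SE 0.10) and HSP70 (AT3G12580) at 2.72 (SE 0.15). HSP81-2, a constitutive HSP90, fell by 0.72, and Hsp70-2 at −0.59 passed the 1.5-fold threshold only barely (−0.57 and −0.53 without replicates 1 and 3 in medium alone, −0.58 without salt replicate 1). In the endoplasmic reticulum 9 of 15 genes fell and 3 rose. The lectin chaperones CRT1a and CNX1 fell by 1.18 (SE 0.04) and 1.13 (SE 0.06), and BIP1 and BIP2, near-identical copies, by 0.73 and 0.76. The genes that rose were BZIP60, a transcription factor of the unfolded protein response, from 0.97, 1.07 and 1.03 to 3.47, 3.52 and 3.33 (change 2.42), ATERDJ3A (0.98) and BZIP28 (0.60, close to the threshold).

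Genes of carbon and nitrogen supply changed at a few members each. Of 8 dark- and sugar-starvation genes 4 rose and 2 fell: DIN2, a beta-glucosidase, changed by 3.93 (SE 0.44) and DIN9, a mannose phosphate isomerase, by 1.84, and DIN10 and DYL1 by −1.87 and −1.05. The trehalose phosphate synthase genes ATTPS6 (1.36) and TPS5 (0.97) led 4 of 8 that rose, a count that was 2 without salt replicate 1. Autophagy genes rose at 9 of 18, each by at most 1.00 (ATG8H and ATG18H), and ATG8D fell by 0.69. In peroxisomal beta-oxidation and the glyoxylate cycle 4 of 14 rose, with ICL, isocitrate lyase, at 1.8 (SE 0.28) and ACX1 at 1.74 (SE 0.06). In branched-chain and lysine catabolism BCAT-2 and IVD rose by 1.6 and 1.14, ALDH6B2 fell by 0.89, and 9 of 12 were not called. The count that fell was 2 without replicate 3 of either group. Nitrate and ammonium genes rose at 4 of 21 and fell at 7: the ammonium transporter AMT1;2 rose by 2.54 (SE 0.11) and the nitrate transporter NRT1.8, which unloads nitrate from the xylem, by 2.5 (SE 0.18), and GLN1;4, a cytosolic glutamine synthetase, and the ammonium transporter AMT1;3 fell by 1.31 and 1.06.

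In the Calvin cycle and photorespiration 20 of 26 members passed in neither direction, 5 rose, with AOAT2, an aminotransferase of photorespiration, at 1.70 and GLDP2, of glycine decarboxylase, at 1.28, and EMB3119, a ribose 5-phosphate isomerase, fell by 0.78. The plastid sigma factor SIGE rose from −1.70, −1.53 and −1.87 to 2.11, 2.15 and 2.2 (change 3.85, SE 0.09, adjusted p = 7.94e-11) and SIGA by 1.76, and SIG4 fell by 0.83. Sigma factors direct the plastid polymerase to its promoters. Of 8 plastid sigma factor and GLK genes tested 4 rose and 2 fell (1 fell without salt replicate 3). Of 16 light signalling genes 6 rose and 2 fell, with the early light-induced proteins ELIP2 and ELIP1 at 4.31 (SE 0.11) and 2.83 (SE 0.11) and PAR1 and PIL5 at −1.70 and −0.76.

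Among lipid enzymes, 7 of 14 phospholipases and phosphoinositide enzymes rose (PLC5 at 1.63, PLDP2 at 1.49) and PLC2 fell by 0.77. Of 7 triacylglycerol and lipid droplet genes 2 rose, 1 fell and 4 were not called. TAG1, which makes triacylglycerol, fell by 1.46 (SE 0.05), and the oleosin OLEO3 rose by 1.15 (SE 0.19). Of 9 ferritin and metallothionein genes 3 rose and 2 fell, among them FER1 (1.5, SE 0.22) and FER3 (−1.97, SE 0.12). Only 1 rose without salt replicate 2, and only 1 fell without replicate 1 or 3 in medium alone or salt replicate 3. Of 21 cysteine-rich receptor-like kinases 8 rose and 8 fell, from CRK30 (−1.81, −2.02 and −1.77 in medium alone, −6.33, −5.82 and −6.50 in salt) and CRK5 (−1.81) to CRK36 (2.68) and CRK31 (3.48, SE 0.23). Most of the reference genes for qRT-PCR passed in neither direction (6 of 7, PP2AA3 at −0.20), but UBQ10 rose by 0.80 (SE 0.05, adjusted p = 5.26e-08). A list of 8 targets of targeted transcript assays rose throughout (median change 4.09). It was chosen on this response and is not independent evidence of its direction.

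The next question was at which of these genes the salt change of proatcape1 differed from that of wild type, tested as an interaction (salt change in proatcape1 minus salt change in wild type). It passed above 0 at 241 loci (1.27%) and below 0 at 247 (1.3%), and 448 of the 488 were also called in proatcape1. Of those, 207 rose with an interaction above 0 and 215 fell with one below 0. Of the 241 above 0, in medium alone all 3 proatcape1 arrays lay below all 3 wild type arrays at 180 loci (11.6% of all loci did so, and 14.4% had them above), and in salt they lay above at 158 (22.4% of all). Of the 247 below 0, the salt arrays of proatcape1 lay below those of wild type at 234 (26.2% of all), and in medium alone they lay above at 59. The interaction uses the same arrays, so these counts describe it and do not test it.

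DNA replication had the most interactions of any list: 13 of 19 genes had an interaction below 0 and none above (background 1.3%). The salt median was −1.40 in proatcape1 and −0.77 in wild type. At CDC6 the wild type arrays were at −1.57, −1.71 and −1.73 in medium alone, beside the proatcape1 values above, and at −2.99, −2.61 and −2.94 in salt, above all 3 proatcape1 salt arrays (interaction −0.74, SE 0.13, adjusted p = 0.0148). The same held at all 13 genes: in salt every proatcape1 array was below every wild type array, and in medium alone the genotypes overlapped. PRL, RNR1, PCNA1, MCM3 and CDC45 had interactions of −0.79, −0.77, −0.75, −0.71 and −0.70. These and CDC6 kept their call without each of the 12 arrays in turn, whereas the count of 13 was 8 without wild type salt replicate 2 and between 9 and 14 in the other omissions. On the 8 arrays scanned on the first day it was 0, with the same sign at each of the named genes (CDC6 −0.77, PCNA1 −0.70). Among histones 5 of 15 had an interaction below 0, but none without proatcape1 replicate 3 in medium alone or wild type salt replicate 2, and 1 without proatcape1 salt replicate 1.

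**Figure D3:**
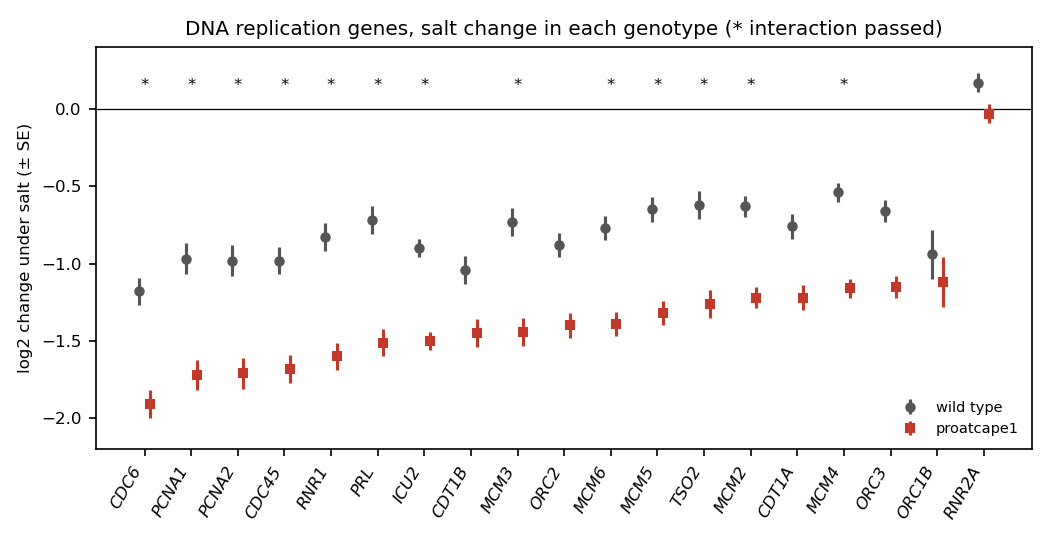
Log2 change under salt (y axis, ± SE of the fit, 3 arrays per group) of 19 DNA replication genes in wild type (grey circles) and proatcape1 (red squares), with an asterisk where the interaction passed. The proatcape1 value is the lower at all 19 genes, and 13 carry an asterisk.

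Of the 20 single genes named by the size of their interaction, 10 kept their call in all 12 single-array omissions. Of these 10, only ZAT7, XBAT34 and CHR38 also kept it on the arrays of the first scan day alone. The 10 include SARD1, a factor that drives salicylic acid synthesis (2.13, SE 0.33, adjusted p = 0.0122), and PBS3, an enzyme of that synthesis (3.42, SE 0.61, adjusted p = 0.0159). SARD1 was at −4.27, −4.14 and −4.33 in proatcape1 in medium alone and at −2.55, −2.40 and −2.41 in salt, but at −3.85, −2.97 and −2.96 and at −3.51, −3.27 and −4.02 in wild type. It thus rose in proatcape1 (1.79) and changed by −0.34 in wild type. Its relative CBP60G had an interaction of 1.72 (adjusted p = 0.02; 0.0501 without proatcape1 replicate 3 in medium alone).

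The calmodulin-like CML37 had an interaction of 2.66 (SE 0.40, adjusted p = 0.011). Its arrays in medium alone were at −3.87, −3.68 and −3.65 in proatcape1 and −1.40, −2.11 and −1.04 in wild type, while its salt arrays overlapped between genotypes (2.21, 2.63 and 2.05 against 2.08, 2.16 and 1.33). ZAT7, a zinc finger repressor, was alike: −3.44, −3.33 and −3.40 against −1.20, −1.51 and −1.05 in medium alone and 0.21, 0.21 and −0.20 against −0.08, −0.09 and −1.0 in salt (interaction 2.6, SE 0.32, adjusted p = 0.00542). BCS1 (1.97) also overlapped in salt only. In these 3 genes the genotypes were apart in medium alone and overlapped in salt, whereas the replication genes overlapped in medium alone and were apart in salt. MPK11, a MAP kinase (2.01), and XBAT34, a ubiquitin ligase with ankyrin repeats (1.97), kept their calls too, and at both the genotypes were apart in both media. PUB54, a U-box protein, had the largest value of the named genes, 4.55 (SE 0.90, adjusted p = 0.0211), but its wild type arrays in medium alone ran from −3.84 to −0.91, and its call was lost without proatcape1 replicate 1 in medium alone (4.15), proatcape1 salt replicate 1 (4.42) or wild type salt replicate 3 (4.22).

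Besides BCS1, several members of the lists above had an interaction above 0 that held in all 12 omissions. They included NDA1 (1.09), NRT1.8 (1.40), ACS7 (1.38), CYP707A3 (0.97) and SIGE (0.69), all of which rose in both genotypes. CRK13 (0.97) was another, which fell by 1.47 in proatcape1 and changed by −2.44 in wild type. None of these list members kept the interaction call on the first scan day alone. Below 0, 3 of the single genes kept their call in all omissions. PORA, the protochlorophyllide oxidoreductase of dark-grown seedlings, was at −1.14, −1.17 and −1.12 in proatcape1 in medium alone and −4.10, −4.60 and −4.70 in salt, and in wild type at −1.43, −1.27 and −1.36 and at −3.23, −3.16 and −3.12 (interaction −1.51, SE 0.17, adjusted p = 0.00484). CHR38, a chromatin factor of DNA methylation also called CLSY1, fell by 3.06 in proatcape1 and changed by −1.67 in wild type (interaction −1.39, SE 0.09, adjusted p = 0.000234). AACT1 (AT5G61160), an acyltransferase, had the lowest value, −2.88 (SE 0.48, adjusted p = 0.0142), with 1 array in medium alone at −0.89 and the others at −2.45 and −2.47.

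**Figure D4:**
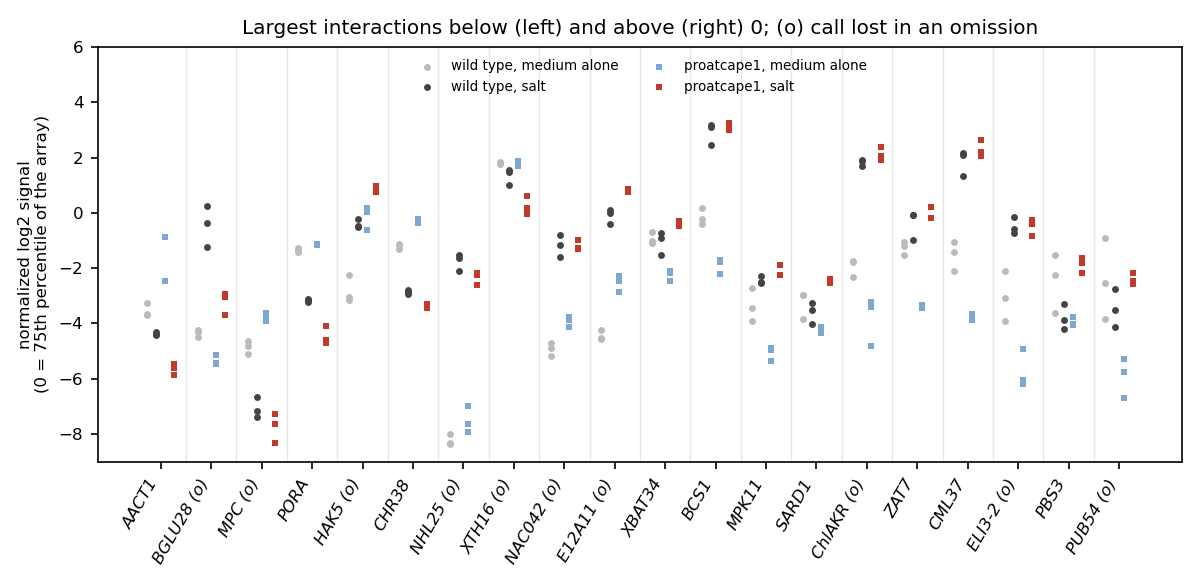
Normalized log2 signal (y axis; 0 is the 75th percentile of the array) on each of 3 arrays per group for the 10 largest interactions below 0 (left) and above 0 (right), circles for wild type and squares for proatcape1, with (o) after genes whose call was lost in at least 1 single-array omission. At ZAT7 and CML37 the proatcape1 arrays in medium alone (blue) lie below those of wild type (light grey), and at PORA the proatcape1 salt arrays (red) lie below those of wild type (dark grey).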

How the data were processed

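Members and gene lists were chosen with earlier results of these data known. The authors read 1-colour Agilent arrays (4 per slide) with Feature Extraction and deposited, per array, processed signal intensity, background subtracted by that software, beside normalized log2 values. The deposited log2 values and those computed here differed by an SD of at most 0.0057 per array, and serve as an alternative.

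Processed signals were log2-transformed after control spots and 76 outlier-flagged probes of 43603 were removed, and each array's 75th percentile was subtracted. Probes were matched to loci through the transcript accession or locus name in the scanner output and RefSeq (34306 probes with a locus, 9221 without). A probe was kept when its signal was over 100 with a coefficient of variation under 50% on all 3 arrays of at least 1 group, and the brightest probe stood for each locus, which left 19027. All of these are protein-coding. Of 2209 called loci with several kept probes, 1970 had the same call at every probe and 9 had opposite calls.

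limma 3.58.1 (R 4.3.3) fitted 4 group means to 12 arrays, with Benjamini-Hochberg adjustment over all loci. The p-values cover the spread between these arrays. Scripts were tested on simulated data. Lists (31, and 6 families formed by symbol) are described by counts and medians; 29 list members without a RefSeq name were left out.

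The genes named are the 15 largest changes and 10 largest bounds in each direction, up to 2 rises, 2 falls and 2 uncalled members per list, members of counts of 5 or fewer, and the 10 largest interactions in each direction. A selection of these is printed. AOX1A, NDB4, NDA1, CYP735A1, CYP735A2, CYP707A3, ABCG40, ACS8, ACS7, AUX1, CRK13, CBP60G, BIP1, BIP2, HB21, HB40, HB53 and the replication genes other than CDC6, PCNA1 and RNR2A were chosen after their values were seen. Alternatives covered background correction, scaling, probe filter, probe choice, arrays in the fit, replicate block, intensity trend, array weights, fold threshold, the deposited log2 values and omission of each array. The 8 arrays scanned on the first day alone were added after seeing the data. No promoter sequences were used here. 1 gene of the ethylene list is not reported here by name.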

Additional observations from a re-analysis of the deposited data

Results flagged for a closer look

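The salt change in proatcape1 differed from that in wild type, by limma's interaction test, at each of the following genes. Above 0 were PUB54 (4.55), PBS3 (3.42), CML37 (2.66), ZAT7 (2.6), SARD1 (2.13), MPK11 (2.01), XBAT34 (1.97), BCS1 (1.97), CBP60G (1.72), NRT1.8 (1.40), ACS7 (1.38), NDA1 (1.09), CYP707A3 (0.97), CRK13 (0.97) and SIGE (0.69). Below 0 were AACT1 (−2.88), PORA (−1.51), CHR38 (−1.39), PRL (−0.79), RNR1 (−0.77), PCNA1 (−0.75), CDC6 (−0.74), MCM3 (−0.71) and CDC45 (−0.70). All but PUB54 and CBP60G kept the call in each of the 12 single-array omissions, and they were named partly for doing so.

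Probes that carry no locus here were outside the comparisons above. Of 2988 such probes that passed the filter, 535 rose (17.9%) and 695 fell (23.3%) in proatcape1 under salt.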

How the results depend on the processing

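The alternatives gave 5176 values for 208 results, which are salt changes and interactions of named genes. Of these values 5112 kept their call or stayed uncalled, and 64 kept the direction but lost the call. No called result reversed. For results not called in the main fit the direction was not compared. Interactions on the first scan day alone were among the 64. Several alternatives cannot alter the size of a salt change in proatcape1, so part of this agreement was fixed in advance. They are the omissions of wild type arrays, the proatcape1 arrays alone, the replicate block, the intensity trend and the 2-fold threshold. With a 2-fold threshold 2443 loci rose and 2589 fell. Single-array omissions gave 3626 to 3773 that rose and 4914 to 5030 that fell. The interaction was less stable. Loci above 0 numbered 105 with no filter on dim probes, 425 with array weights, 109 at 2-fold and 16 on the first scan day alone (4 arrays fewer), and 112 to 396 over the omissions. Loci below 0 numbered 145 with normexp, 122 with no filter, 18 at 2-fold and 3 on the first scan day, and 95 to 414 over the omissions. Both highest counts came without wild type salt replicate 1. Normexp gave 213 above 0, so 59.5% of interaction calls were above 0 against 49.4%. The cause of these shifts was not tested. The 13 replication genes were 0 at 2-fold and on the first scan day, and 9 with normexp.

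Each slide carries 1 array of every group, so the slide and the replicate block are the same. Deviations of same-numbered proatcape1 arrays correlated at 0.12, −0.07 and 0.05. They share a slide and a scan day, but not every pair deviated together, so they were not treated as paired. With the replicate block 3734 loci rose and 4989 fell (3729 and 4986 of them also without it), and 247 and 253 interactions passed above and below 0 (208 and 232 shared).

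List medians changed sign for class I HD-Zip factors (−0.08 with the well-above-background filter), nitrate and ammonium genes (−0.01 on the first scan day) and cysteine-rich kinases (0.18 with no filter). Dim probes limit those of the largest changes that are given as bounds, and these bounds are approximate.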
